A study of Mus musculus with 6 samples.

Results

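Transcripts of 10 heat shock genes were compared between activated CD8+ T cells of the mouse that were cultured with TVA (trans-vaccenic acid, a long-chain fatty acid of meat and milk from ruminants) and those cultured with the solvent DMSO. The genes encode the inducible HSP70 proteins (Hspa1a and Hspa1b), the constitutive HSP70 (Hspa8), both cytosolic HSP90 proteins (Hsp90aa1 and Hsp90ab1), the HSP110 Hsph1, the J-domain cochaperones Dnaja1 and Dnajb1, and the mitochondrial chaperonin Hspd1 with its partner Hspe1. They were found by symbol, 10 of 10, among 24589 genes in the deposited table. The members were selected on the measured difference between TVA and DMSO in these same libraries, which was known when they were named, so their own changes are described here and not tested. In TVA the transcripts of Hspa1a and Hspa1b were 2.85-fold and 3.21-fold lower than in DMSO, whereas the group means of the other 8 differed by at most 9.62%.

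The cells were wild-type (WT) primary CD8+ T cells, which per the study's methods were purified on magnetic beads from C57BL/6 spleens and peripheral lymph nodes and activated with plate-bound antibodies to CD3 and CD28. Both groups were activated in this way and kept in Click's medium with serum, and then received either DMSO (3 libraries) or TVA at 20 µM (3 libraries) for 24 h. The study's methods describe young adult mice of both sexes, matched for sex and age, for the study as a whole. The sources used here do not give which mice were used for these cultures, how many were pooled, or whether the 3 libraries of a group came from separate cultures, so the p-values below measure only the spread between these libraries, which may be technical. There was no untreated group and no cell population taken before activation.

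HSP70 proteins bind exposed hydrophobic stretches of unfolded proteins in a cycle driven by ATP. J-domain proteins bring the clients and start ATP hydrolysis, and nucleotide exchange factors such as HSP110 let the client go, often on to HSP90, which completes the folding of many kinases and receptors. Under heat or other protein stress the transcription factor HSF1 binds heat shock elements, inverted repeats of the unit GAA, and raises the inducible members, with Hspa1a and Hspa1b among the most inducible, while Hspa8 and Hsp90ab1 are made in unstressed cells too. T cells that have been activated grow and make much new protein, which draws on chaperones.

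Hspa1a and Hspa1b lie side by side on chromosome 17 of GRCm38 (the mm10 build named in the submitters' processing notes). Hspa1a spans chr17:34969359-34972156 and Hspa1b spans chr17:34956429-34959238, both on the minus strand, each with 1 exon and with 10120 bases between them. The bases before their starts are shown because these 2 genes carry the change in the data. They come from the RefSeq promoter windows of GRCm38.p6, 5′ to 3′ on the gene's strand, 250 bases each, and end on the base before the annotated start. Capitals mark the single exact match to the heat shock element pair, GAANNTTC, in each.
Hspa1a, chr17:34972157-34972406: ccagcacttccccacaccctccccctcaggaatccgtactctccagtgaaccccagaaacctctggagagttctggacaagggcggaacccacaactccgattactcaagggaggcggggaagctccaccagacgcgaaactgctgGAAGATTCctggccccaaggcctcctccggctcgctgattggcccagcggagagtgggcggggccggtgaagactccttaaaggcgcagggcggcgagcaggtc
Hspa1b, chr17:34959239-34959488: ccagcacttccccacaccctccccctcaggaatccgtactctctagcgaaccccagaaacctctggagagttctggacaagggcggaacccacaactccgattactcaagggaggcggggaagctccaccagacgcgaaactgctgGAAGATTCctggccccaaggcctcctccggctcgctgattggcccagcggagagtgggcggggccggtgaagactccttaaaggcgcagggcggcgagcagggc
The 2 stretches differed at 3 of 250 bases, and none of the 3 fell within the pair.

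Among the other members with a promoter window, 3 (Hspd1, Hspe1 and Hsph1) held a longer exact match. This was a run of at least 3 alternating GAA and TTC units with any 2 bases between them. Only exact units were searched, so longer elements with a mismatched unit were not looked for in Hspa1a, Hspa1b or any other gene. Stretches with exact matches in Hspe1 and Hsph1 are shown next. Capitals mark the run in the first and the last, and an isolated pair, TTCNNGAA, in the middle one.
Hspe1, chr1:55088053-55088082, plus strand: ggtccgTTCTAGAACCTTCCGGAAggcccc
Hsph1 before the start, chr5:149636351-149636380, minus strand: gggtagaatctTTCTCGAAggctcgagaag
Hsph1 after the start, chr5:149636288-149636300, minus strand: TTCTGGAAAGTTC
The Hspe1 run of 18 bases lay at −89 to −72, counting the first transcribed base as 0. Since Hspd1 and Hspe1 are transcribed away from each other, the same run was found again in the window of the second annotated start of Hspd1, at −144 to −127. In Hsph1 the run of 13 bases lay at 36 to 48, inside the transcript. In the GENCODE vM21 annotation the Hspe1 stretch also falls within the first exon of a transcript of Hspd1 on the other strand, and the isolated pair of Hsph1 within the first exon of another Hsph1 transcript that starts farther upstream.

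RefSeq windows, which run from 250 bases before to 50 bases from the start onward, were given for 7 of the 10 genes (12 windows), and were not given for Hspa8, Hsp90aa1 and Hsp90ab1. GAANNTTC and TTCNNGAA each read the same on both strands, and they share bases within a run. GAANNTTC was found in 6 of the 7 genes, and TTCNNGAA only in Hspd1, Hspe1 and Hsph1. Dnajb1 held neither. Of 27025 genes in the RefSeq table, 17.0% held a pair and 0.662% held a run of at least 3 units in any window. Of all 32851 windows, 7.86% held GAANNTTC, 8.52% held TTCNNGAA and 0.603% held a run. The pair of Hspa1a and Hspa1b lay at −104 to −97 in both, and the letters CCAAT, present in 37.4% of all windows on either strand, lay at −67 to −63. No member window held TATAAA, which 13.6% of all windows did. Among 83 genes of the wider chaperone lists with a window, 2 held a run: Chordc1, a cochaperone of HSP90, and Dnajb6, a J-domain protein. A letter match is a description of the sequence and was not tested as a binding site.

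**Figure D1:**
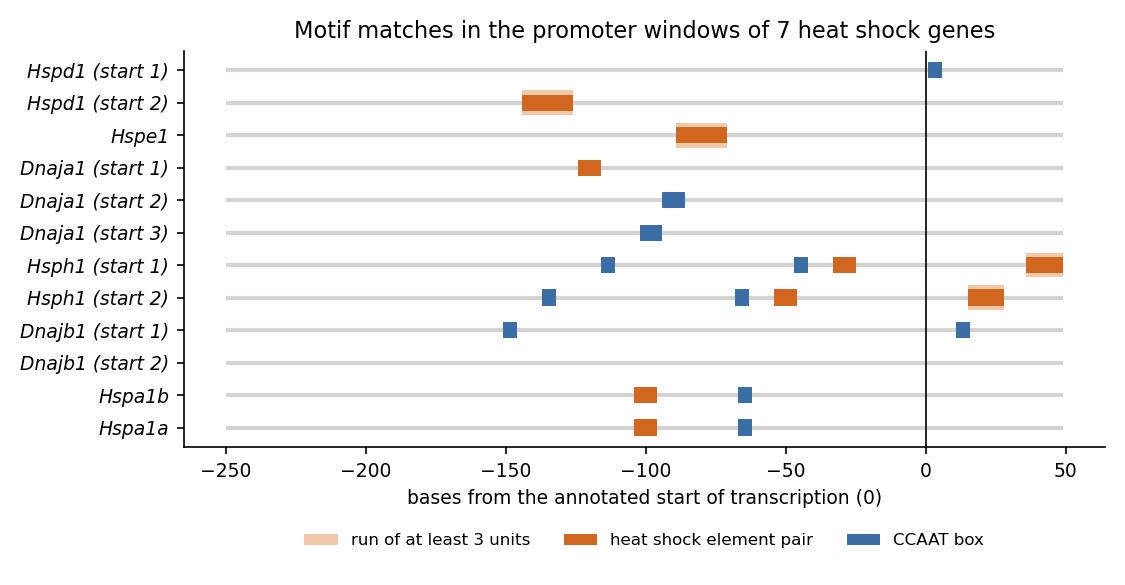
Positions of motif matches in the 12 RefSeq promoter windows of 7 heat shock genes, in bases from the annotated start (0, vertical line); dark orange marks heat shock element pairs, light orange a run of at least 3 units, and blue the letters CCAAT. Hspa1a and Hspa1b have 1 pair at −104 to −97, Hspe1 has a run at −89 to −72, and Dnajb1 has neither.

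Levels are given as TPM, the usual transcript abundance of RNA-seq, which is scaled for transcript length and to the same total in every library, so that levels of different genes can be set side by side. In DMSO the highest mean levels were those of Hspa8 (3656 TPM) and Hsp90ab1 (3603 TPM), and the values of these 2 genes overlapped. Hspd1 (1332 TPM) stood below both. Next came Hspe1 (1211 TPM) and Hsp90aa1 (1156 TPM), which overlapped. Dnaja1 (196 TPM), Hsph1 (161 TPM) and Dnajb1 (55.9 TPM) followed, each apart from the one before. Hspa1b (41.8 TPM) overlapped Dnajb1, and Hspa1a (21.0 TPM) was lowest. In TVA the order was the same except that Hsp90ab1 (3732 TPM) and Hspa8 (3719 TPM), which again overlapped, changed places, and Dnajb1 (52.7 TPM) then stood clear of Hspa1b (13.0 TPM). The 10 genes held 1.11% to 1.18% of all TPM in the DMSO libraries and 1.17% to 1.18% in the TVA libraries. By mean TPM over the 6 libraries of both groups, Hspa8 ranked 51 among all genes, Hsp90ab1 52, Hspd1 109, Hspe1 119 and Hsp90aa1 122. Hspa1b ranked 4661 and Hspa1a 6628 by this pooled mean, although their levels differed between the groups.

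**Figure D2:**
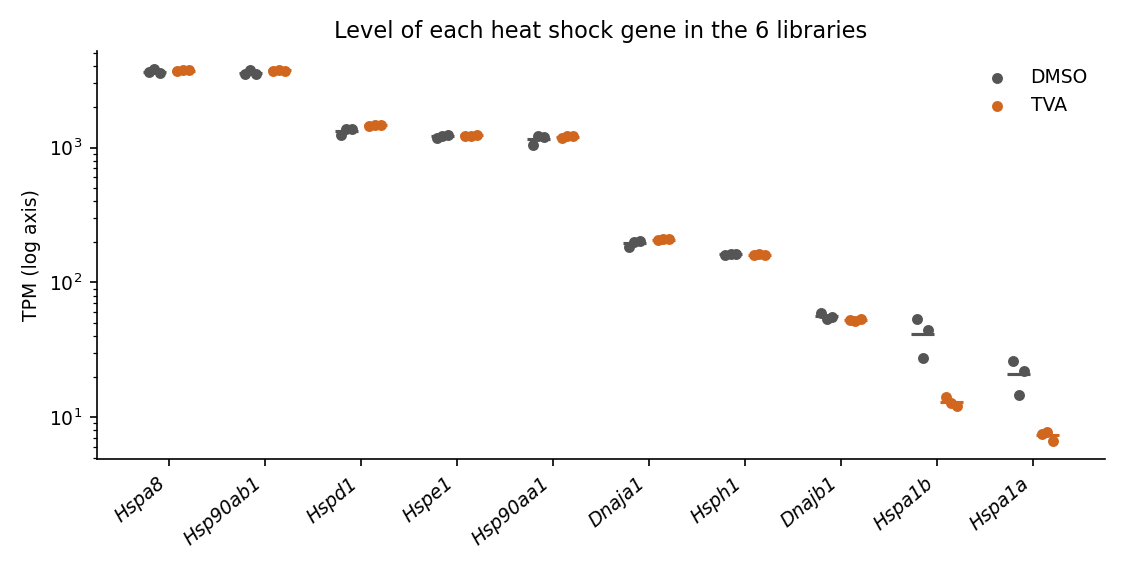
TPM (log axis) of each of the 10 heat shock genes in the 3 DMSO (grey) and 3 TVA (orange) libraries, with a bar at each group mean and genes ordered by level. Only Hspa1b and Hspa1a show a visible gap between groups, and their 3 DMSO points are the most spread out.

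Hspa1a, an HSP70 that is low in unstressed cells and strongly raised by heat, was at 26.3, 14.6 and 22.1 TPM in DMSO libraries 1, 2 and 3 and at 7.55, 7.84 and 6.71 TPM in TVA libraries 1, 2 and 3. Hspa1b, which encodes nearly the same protein, was at 53.9, 27.3 and 44.1 TPM in DMSO and at 14.2, 12.8 and 12.1 TPM in TVA. For both genes every TVA library lay below every DMSO library, and DMSO library 2 lay between the other DMSO libraries and the TVA libraries. The mean of Hspa1a was 21.0 ± 5.93 TPM in DMSO and 7.37 ± 0.587 TPM in TVA (SD, n = 3 each). The mean of Hspa1b was 41.8 ± 13.4 TPM in DMSO and 13.0 ± 1.09 TPM in TVA. On the log2(TPM + 1) scale, which understates the change of genes with low TPM, the change was −1.36 (SE 0.18) for Hspa1a and −1.56 (SE 0.21) for Hspa1b. Ranked from the largest fall among 10866 genes fitted for the difference, Hspa1b stood at 13 and Hspa1a at 15.

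The level of both genes also varied within the DMSO group. The SD among the DMSO libraries, as log2, was 0.41 for Hspa1a and 0.49 for Hspa1b, larger than for 98.6% and 99.0% of the genes fitted. In the TVA libraries the corresponding SDs were 0.10 and 0.11. Without DMSO library 2 the change was −1.59 for Hspa1a and −1.83 for Hspa1b, and without DMSO library 1 it was −1.19 and −1.35. In each of these settings the change stayed more than 1 on the log2 scale.

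The copies are nearly identical, so how the reads were divided between them is uncertain. Their annotated transcripts matched at 91.4% of 2729 aligned bases and their longest reading frames at all but 8 of 1926 bases. Of all stretches of 50 bases in the Hspa1a transcript, 58.8% were also found whole in Hspa1b. A gene annotated on the opposite strand, Gm20481, also overlaps the start of Hspa1a, and whether strand was used in the counting is not given in the sources used here. The summed TPM of the 2 genes depends on the split only through the small difference in transcript length (2967 and 2803 bases). It was 80.2, 41.9 and 66.3 in DMSO and 21.8, 20.6 and 18.8 in TVA, a log2 change of −1.53 (SE 0.28), or 3.08-fold lower in the group mean. The ratio of Hspa1b to Hspa1a was 2.05, 1.87 and 1.99 in DMSO and 1.88, 1.63 and 1.80 in TVA, and these ranges overlapped.

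**Figure D3:**
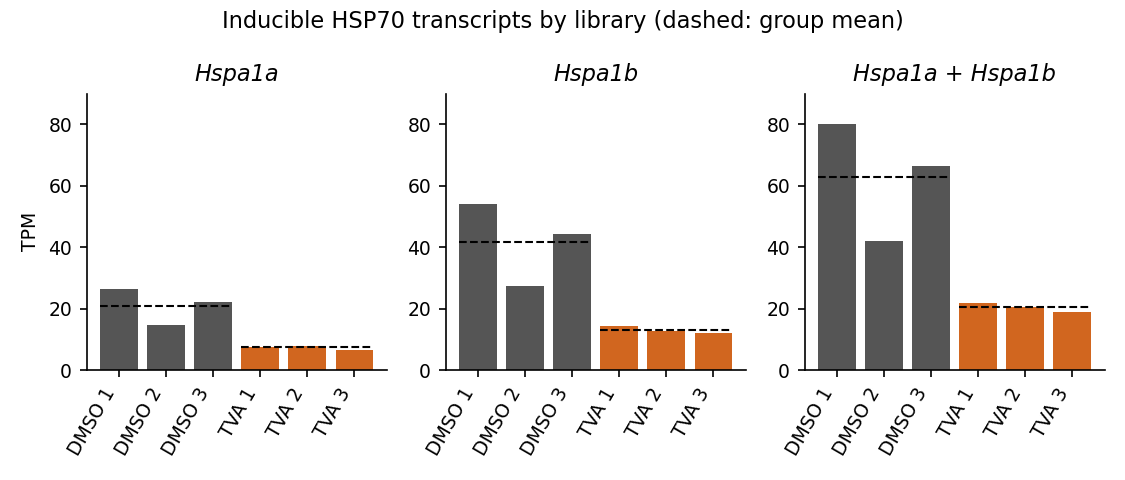
TPM of Hspa1a, Hspa1b and their sum in each library (bars from 0, grey DMSO and orange TVA), with a dashed line at each group mean. The sum is between 41.9 and 80.2 TPM in the DMSO libraries and between 18.8 and 21.8 TPM in the TVA libraries.

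Hspa8, the constitutive HSP70 of the cytosol (chr9:40801276-40805202, plus strand), was at 3612, 3804 and 3553 TPM in DMSO and at 3696, 3732 and 3728 TPM in TVA. All 3 TVA values lay inside the DMSO range, and the log2 change was 0.03 (SE 0.042). For each TPM of Hspa1a and Hspa1b together there were 45.0, 90.7 and 53.6 TPM of Hspa8 in the DMSO libraries, and 170, 181 and 199 in the TVA libraries. The inducible genes thus held 1.09% to 2.17% of the TPM of these 3 HSP70 genes in DMSO and 0.501% to 0.585% in TVA.

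The HSP90 genes showed no separation of the groups. Hsp90aa1, the inducible form (chr12:110691036-110696395, minus strand), was at 1052, 1219 and 1197 TPM in DMSO and at 1171, 1222 and 1227 TPM in TVA, a log2 change of 0.06 (SE 0.060). Hsp90ab1, the constitutive form (chr17:45567778-45573261, minus strand), was at 3505, 3769 and 3534 TPM in DMSO and at 3718, 3757 and 3721 TPM in TVA, a log2 change of 0.05 (SE 0.043). In both genes DMSO library 1 held the lowest value of the 6. The ratio of Hsp90ab1 to Hsp90aa1 was 2.95 to 3.33 in DMSO and 3.03 to 3.17 in TVA.

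Hsph1, the HSP110 that acts as nucleotide exchange factor for HSP70 (chr5:149616843-149636498, minus strand), was among the steadiest transcripts of the data. Its values were 160.6, 161.4 and 161.8 TPM in DMSO and 159.3, 162.2 and 161.0 TPM in TVA, a log2 change of −0.0039 (SE 0.032). Only 0.29% of the genes fitted had a smaller SD among the DMSO libraries. This gene, which is itself heat-inducible, thus had almost the same level in all libraries in which Hspa1a and Hspa1b varied most.

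Of the J-domain proteins, which start the HSP70 cycle, Dnajb1 is heat-inducible and Dnaja1 is abundant in unstressed cells. Dnajb1 (chr8:83608175-83612653, plus strand) was at 59.4, 53.3 and 55.0 TPM in DMSO and at 52.2, 51.9 and 54.0 TPM in TVA. The groups overlapped, with a log2 change of −0.08 (SE 0.049). Dnaja1 (chr4:40722468-40734965, plus strand) was at 182, 201 and 205 TPM in DMSO and at 205, 209 and 209 TPM in TVA, a log2 change of 0.09 (SE 0.049). All TVA values of Dnaja1 were above all DMSO values, but by a margin smaller than the spread of the DMSO group. The ratio of Dnaja1 to Dnajb1 was 3.06, 3.77 and 3.72 in DMSO and 3.93, 4.03 and 3.87 in TVA.

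Hspd1 encodes HSP60, the folding chamber of the mitochondrial matrix, and Hspe1 encodes HSP10, its lid. Hspd1 (chr1:55077833-55088243, minus strand) was at 1246, 1376 and 1373 TPM in DMSO and at 1438, 1472 and 1470 TPM in TVA. Its TVA values were all above its DMSO values, the mean was 9.62% higher, and the log2 change was 0.13 (SE 0.048). Hspe1 (chr1:55088148-55091317, plus strand) was at 1178, 1213 and 1243 TPM in DMSO and at 1227, 1221 and 1244 TPM in TVA, a log2 change of 0.02 (SE 0.037), and its groups overlapped. The ratio of Hspd1 to Hspe1 was 1.06, 1.13 and 1.11 in DMSO and 1.17, 1.21 and 1.18 in TVA. The annotated genes overlap head to head by 96 bases, and with strand use not given, reads there cannot be assigned to one of them.

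Across all genes, limma (a linear model with moderated variances, on log2(TPM + 1), for genes with at least 1 TPM in at least 3 libraries) gave an adjusted p under 0.05 for 8.51% of 10866 genes, 5.28% higher and 3.23% lower with TVA. Of the 10 members, all of which entered the fit, 2 passed this threshold, Hspa1a and Hspa1b, both lower, and since they were chosen on this contrast nothing is read from that count. Neither passed in limma without TVA library 1 (both had an unadjusted p under 0.05), and 1 of the 2 passed without TVA library 2 and 1 without TVA library 3. Of all 10866 genes, 125, 102 and 113 passed in these fits. Groups that did not overlap were seen for 2 members lower (Hspa1a and Hspa1b) and 2 higher (Dnaja1 and Hspd1), where 11.2% of all genes fitted were lower without overlap and 27.3% higher. The median log2 change of the members was 0.024, beside 0.039 over all genes fitted. Between genes called higher and lower the split was 574 to 351 as deposited, 292 to 462 after median-of-ratios scaling and 357 to 418 after quantile normalization, so the split depended on the scaling. The log2 changes of Hspa8, Hsp90aa1, Hsph1 and Hspe1 had different signs in different settings.

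**Figure D4:**
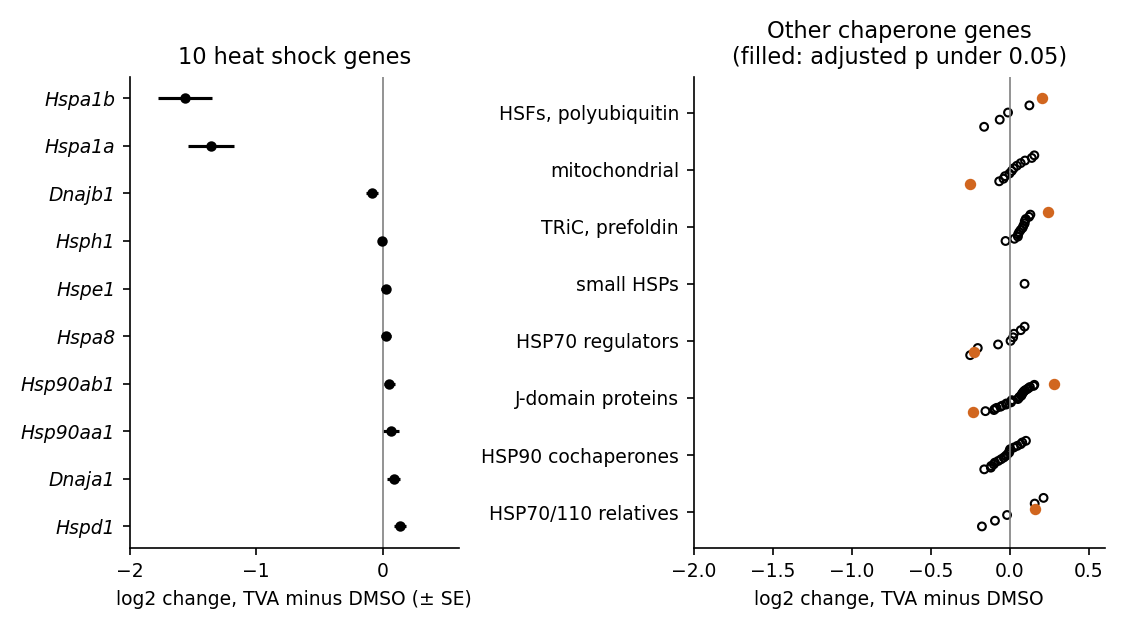
Left, log2 change (TVA minus DMSO, ± SE) of the 10 heat shock genes; right, log2 change of each fitted gene of 8 other chaperone lists, filled where the limma adjusted p was under 0.05. Hspa1b (−1.56) and Hspa1a (−1.36) lie far to the left, and all fitted genes of the other lists lie between −0.25 and 0.28.

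Other genes of the chaperone system were taken from 8 lists by function, 105 genes in all, of which 92 entered the fit. Of these 92, 4 rose and 3 fell at a limma adjusted p under 0.05, or 7.61%, beside 8.51% of all genes fitted. Their log2 changes lay between −0.25 and 0.28, with a median of 0.025, so that none of the 92 fitted genes had a change close in size to those of Hspa1a and Hspa1b. The counts depended on single libraries, as did those over all genes. Without DMSO library 2 they were 9 higher and 5 lower, or 15.2% of 92 beside 20.6% of all genes. Without DMSO library 3 only 1 gene passed, beside 294 of all 10866 genes. Without TVA library 1, 2 or 3 limma called 0 of the 92, with 18, 13 and 12 at an unadjusted p under 0.05. Of all 10866 genes, 125, 102 and 113 passed in these fits. With the numbers of the replicates as a block limma called 0 of the 92, beside 218 of all 10866 genes. In that fit 26 of the 92 had an unadjusted p under 0.05.

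Among the HSP70 and HSP110 relatives, 1 of 6 fitted genes rose. This was Hspa14, an HSP70 found on ribosomes, at 147, 151 and 142 TPM in DMSO and 160, 165 and 167 TPM in TVA, a log2 change of 0.16 (limma adjusted p = 0.049, and 0.022 to 0.20 over 14 alternative settings). Hspa14 lost the threshold in 12 of these 14 settings. With the correction for GC content its change was 0.094 (limma adjusted p = 0.10). Hspa4, an HSP110 and the most abundant of this list, was at 172 to 180 TPM in DMSO and 173 to 176 TPM in TVA. Hspa1l, which lies in the same cluster of genes as Hspa1a and Hspa1b and was picked out after its values were seen, was near the lower limit at 1.87 to 2.20 TPM in DMSO and 1.57 to 2.17 TPM in TVA.

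Of 27 fitted J-domain genes, 1 rose and 1 fell. Dnajb4, a cytosolic relative of Dnajb1, was at 8.69, 8.46 and 8.92 TPM in DMSO and 10.5, 11.3 and 10.5 TPM in TVA, a log2 change of 0.28 (limma adjusted p = 0.023, and 0.022 to 0.12 over 13 settings). Dnajb5, another relative of Dnajb1, was at 27.4, 26.8 and 25.5 TPM in DMSO and 21.9, 22.4 and 23.2 TPM in TVA, a log2 change of −0.23 (limma adjusted p = 0.028, and 0.012 to 0.14 over 14 settings). Members of one subfamily thus moved in opposite directions. The abundant Dnajc15 and Dnajc8 had log2 changes of 0.01 and 0.06.

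Of the 9 genes for nucleotide exchange and other control of HSP70, 1 fell. Bag2, an inhibitor of the ubiquitin ligase CHIP, was at 20.7, 20.6 and 21.6 TPM in DMSO and 17.3, 18.4 and 17.7 TPM in TVA, a log2 change of −0.23 (limma adjusted p = 0.027, and 0.020 to 0.13 over 14 settings). Bag3, a heat-inducible partner of HSP70 that was picked out after its values were seen, was at 6.14, 3.98 and 5.19 TPM in DMSO and 4.25, 3.84 and 4.14 TPM in TVA. Its groups overlapped, and as for Hspa1a and Hspa1b the lowest DMSO value was that of library 2.

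None of the 18 HSP90 cochaperones passed the threshold in limma, with 2 at an unadjusted p under 0.05, and their log2 changes lay between −0.16 and 0.10. Over both groups together the most abundant were Nudc and Ptges3, the p23 cochaperone. Nudc was at 292 to 359 TPM in DMSO and 295 to 307 TPM in TVA. Ptges3 was at 306 to 351 TPM in DMSO and 307 to 323 TPM in TVA. In each the groups overlapped.

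Of the 14 genes of TRiC, the cytosolic chaperonin for actin and tubulin, and of prefoldin, which hands clients to it, 1 rose. Pfdn2, a prefoldin subunit, was at 217, 253 and 234 TPM in DMSO and 285, 277 and 271 TPM in TVA, a log2 change of 0.24 (limma adjusted p = 0.044, and 0.0060 to 0.17 over 14 settings). The TRiC subunits Cct2 and Cct5 had log2 changes of 0.03 and 0.06. Of 12 mitochondrial chaperones and proteases, 1 fell. Lonp1, the main protease of the matrix, was at 154, 133 and 135 TPM in DMSO and 119, 116 and 118 TPM in TVA, a log2 change of −0.25 (limma adjusted p = 0.042, and 0.0092 to 0.17 over 14 settings), whereas Hspa9, the mitochondrial HSP70, had a log2 change of −0.04.

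Of the small heat shock proteins, which hold unfolded proteins without ATP, Hspb6 entered the fit, at 2.14 to 2.83 TPM in DMSO and 2.71 to 2.85 TPM in TVA. The other 8 were not tested and reached at most 1.67 TPM in a library. That value was for Hspb1, which encodes HSP25 and was picked out after its values were seen, at 1.67, 1.08 and 0.61 TPM in DMSO and 0.46, 0.24 and 0.47 TPM in TVA. Its TVA values were all lower, with a difference of the means of −65.2%, at a level where TPM gives no depth to judge them by. Hspb8, also picked out after its values were seen, was still lower, at 0.14, 0.38 and 0.23 TPM in DMSO and 0.14, 0.05 and 0.06 TPM in TVA, with overlapping groups.

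Of 5 fitted genes for heat shock factors and polyubiquitin, 1 rose. Hsf2, a heat shock factor that can pair with HSF1, was at 21.6, 19.9 and 20.3 TPM in DMSO and 23.9, 23.9 and 23.7 TPM in TVA, a log2 change of 0.20 (limma adjusted p = 0.038, and 0.018 to 0.27 over 14 settings). With the GC correction its change was 0.10 (limma adjusted p = 0.27), at a GC content of 38.9%. The transcript of Hsf1, picked out as the regulator of the inducible genes, was at 37.2, 33.8 and 33.0 TPM in DMSO and 32.3, 34.2 and 32.7 TPM in TVA, a log2 change of −0.06 (limma adjusted p = 0.44). HSF1 acts through its state in the cell, which these data do not measure. The polyubiquitin gene Ubb, at 1446 to 1649.5 TPM in DMSO and 1531 to 1555 TPM in TVA, had a log2 change of −0.01, and its groups overlapped.

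Among 8935 genes that averaged 5 TPM or more, those whose profile over the 6 libraries was nearest to each of Hspa1a and Hspa1b were sought by the root mean square difference of centred log2 values. Each was the nearest gene to the other, at 0.12. After it, Hspa1a was nearest to Epb41l4aos (0.21), Crlf2 (0.22), Utf1 (0.23) and Tpgs1 (0.25), and Hspa1b to Crlf2 (0.23), Jund (0.30), Chchd10 (0.31) and Ubald2 (0.31). None of these is a chaperone. Crlf2, a cytokine receptor subunit, was at 48.6, 17.6 and 37.1 TPM in DMSO and 14.6, 12.4 and 12.9 TPM in TVA. Jund, an AP-1 transcription factor, was at 238, 61.7 and 165 TPM in DMSO and 49.4, 48.0 and 45.4 TPM in TVA. In all of them the order was DMSO library 1, then 3, then 2. As these genes were chosen by profile, the shared order is no separate observation.

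A base composition pattern moved with this profile. Transcript GC content was 58.9% for Hspa1a and 58.1% for Hspa1b, above that of 93.4% and 90.6% of the genes fitted, and 55.1% to 67.1% for the 7 genes nearest to them. Across genes, which share the 6 libraries and are not independent replicates, the Spearman correlation of GC content with the log2 change was −0.40, and with the difference of DMSO library 1 from DMSO library 3 it was 0.62. After a correction for GC content within each library the change was −1.26 for Hspa1a and −1.48 for Hspa1b. The change was thus nearly as large after the correction. For Dnaja1, with a GC content of 43.0%, the change went from 0.09 to 0.0080 with the correction, and for Hspd1 from 0.13 to 0.12.

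The libraries correlated at 0.989 to 0.999 (Pearson, log2 values across genes), and the depth of each is unknown. Summed TPM of 7 CD8 T cell and T cell receptor markers was 2089 to 2257 in DMSO and 2336 to 2366 in TVA. Markers of CD4 T cells (3 genes) summed to 9.97 to 11.6 TPM and 8.72 to 10.4 TPM, and those of B cells (5 genes, 3 below 1 TPM in all libraries) to 11.3 to 15.04 TPM and 10.8 to 11.0 TPM. Markers of myeloid cells (8 genes, led by Lyz2) summed to 53.2 to 54.2 TPM in DMSO and 68.5 to 73.4 TPM in TVA. Those of NK cells (4 genes) summed to 21.5 to 24.2 TPM and 32.8 to 33.1 TPM, nearly all from Eomes, which CD8 T cells also express, and the defining marker Ncr1 stayed below 1 TPM. Those of red cells (5 genes) summed to 37.7 to 61.3 TPM and 48.6 to 58.7 TPM. No marker was at 0 in all libraries. The part of these other cells in the values above was not tested, and in bulk RNA, fewer cells that express a gene and less of its RNA per cell cannot be told apart.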

How the data were processed

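Bulk RNA-seq was made of activated CD8+ T cells in 6 libraries, 3 with DMSO and 3 with TVA. The labels name the SMARTER mRNA-Seq kit for the libraries, and the submitters' processing notes name STAR, RSEM and mm10. Versions, the annotation and the use of strand are not given in the sources used here. The authors deposited 1 table of TPM (2 decimals), in which sequencing depth cannot be seen, so no counting interval is given. Groups and replicate numbers were taken from the titles, and columns were matched by the names in the descriptions.

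TPM values were used as log2(TPM + 1). Genes with at least 1 TPM in at least 3 libraries (10866) were compared with limma 3.58.1 (R 4.3.3, trend of the prior variance, two-sided, Benjamini-Hochberg adjustment, threshold 0.05), without a replicate block. Alternatives were a pseudocount of 0.1, filters at any TPM above 0 or at an average of 10 TPM, scaling by median-of-ratios size factors, quantile normalization, no variance trend, a replicate block, a GC correction (loess, span 0.5, on median transcript GC content in GENCODE vM21, known for 97.4% of the genes), and the omission of each library. The fit was tested on simulated data. Deviations from the group means of libraries with the same number correlated at 0.16, 0.035 and −0.077, and no label ties the numbers to a shared mouse or day, so the numbers were not taken as pairs.

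The members and gene lists were chosen with earlier results of these data known. Genes named were the members, the network genes past the threshold with the largest changes (up to 5 per direction), the most abundant of each list (up to 2, of which 1 is not reported here), and the 5 genes nearest in profile to members whose range exceeded 1 (log2). Coordinates and promoters are from RefSeq (GRCm38.p6), which shares its coordinates with mm10. Transcripts were aligned with Biopython 1.88, and figures drawn with matplotlib 3.10.9. Protein sequences were not used here.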

Additional observations from a re-analysis of the deposited data

How the results depend on the processing

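The log2 changes of Hspa1a and Hspa1b ranged from −1.59 to −1.19 and from −1.83 to −1.35 over the 14 alternatives. For the members, 133 of the values under an alternative moved by less than the replicate spread and 7 moved by more. For the 7 named network genes, 46 values kept their side of the threshold and 51 lost it. Hspa14 lost it in 12 of 14 settings, Pfdn2 in 10 of 14, and Hsf2 and Lonp1 in 7 of 14 each. Dnajb4 lost it in 6 of 13, Bag2 in 5 of 14 and Dnajb5 in 4 of 14. The count of all genes past the threshold (925) was 494 when any TPM above 0 sufficed, 608 at an average of 10 TPM or more, 218 with the replicate block, and 102 to 2242 with 1 library left out (without TVA replicate 2 and DMSO replicate 2). That of members (2) was 0 to 2 with 1 library left out, and stayed at 2 with the block. That of network genes (7) was 2 when any TPM above 0 sufficed, 4 without the variance trend, 0 with the replicate block and 0 to 14 with 1 library left out. Those higher (4) numbered 0 when any TPM above 0 sufficed, 2 at an average of 10 TPM or more, with median-of-ratios scaling, quantile normalization or no variance trend, 0 with the replicate block, and 0 to 9 with 1 library left out. Those lower (3) numbered 0 with the block, 5 with the GC correction and 0 to 5 with 1 library left out. The median log2 change of the members (0.024) was −0.0059 with median-of-ratios scaling, which took the median of all genes from 0.039 to 0.011, and −0.018 with the GC correction. The cause of these differences was not tested. No label ties the replicate numbers to pairs, and the block lowered the count of calls over all genes. The summed Hspa1a and Hspa1b value was not run under quantile normalization, the GC correction or the filters and variance trend, which are defined per gene or leave it as it is.

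Depth is unknown from TPM, so values near 1 TPM, such as those of Hspb1, have no known counting error. Groups of 3 libraries were not searched for one far from the others.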

Other observations

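Chaperones of the endoplasmic reticulum, which fold secreted and membrane proteins, are governed by other factors than the cytosolic heat shock genes. Of 20 such genes listed, 19 entered the fit. In limma 2 rose and 0 fell (10.5%, beside 5.28% of all genes fitted that rose), both close to the threshold. At an unadjusted p under 0.05, 3 were higher and 2 lower. Values of the 2 genes under the alternative settings are not given here. Pdia4, a disulfide isomerase, was at 95.3, 98.2 and 94.6 TPM in DMSO and 106, 108 and 106 TPM in TVA, a log2 change of 0.15 (limma adjusted p = 0.045). Dnajc10, a J-domain protein with disulfide reductase activity, was at 38.7, 40.7 and 40.5 TPM in DMSO and 43.8, 44.9 and 46.4 TPM in TVA, a log2 change of 0.17 (limma adjusted p = 0.048). The most abundant, Calr, was at 742 to 775 TPM in DMSO and 753 to 757 TPM in TVA, and Hspa5, the HSP70 of this compartment (BiP), was at 615 to 661 TPM in DMSO and 665 to 686 TPM in TVA (limma adjusted p = 0.24). The list's median log2 change was 0.044. Without DMSO library 2 the list had 3 genes higher and 3 lower (31.6%, beside 20.6% of all genes).

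Immediate early genes respond fast to stress and to stimulation. This list of 13 was made with earlier results of these data known. In limma 3 fell and 0 rose (23.1% of 13 called), and at an unadjusted p under 0.05, 5 were lower and 0 higher. Of all genes fitted, 3.23% fell and 5.28% rose. Atf3, a stress-induced transcription factor, was at 97.1, 93.0 and 91.6 TPM in DMSO and 78.6, 78.0 and 78.4 TPM in TVA, a log2 change of −0.26 (limma adjusted p = 0.012). Ier3 was at 56.6, 47.6 and 51.5 TPM in DMSO and 38.9, 36.6 and 38.5 TPM in TVA, a log2 change of −0.44 (limma adjusted p = 0.013). Dusp1, a phosphatase of MAP kinases, was at 16.4, 12.7 and 14.3 TPM in DMSO and 10.8, 11.3 and 9.79 TPM in TVA, a log2 change of −0.41 (limma adjusted p = 0.041). Values of these 3 genes under the alternative settings are not given here. Junb, an AP-1 subunit, had the highest mean of the list in DMSO but not in TVA. Junb was at 426, 199 and 346 TPM in DMSO and 186, 170 and 170 TPM in TVA, a log2 change of −0.81 (limma adjusted p = 0.071). Its DMSO libraries were in the same order as for Hspa1a and Hspa1b. Nr4a1 was at 212 to 242 TPM in DMSO and 221 to 224 TPM in TVA, with overlapping groups. The list's median log2 change was −0.03. Without DMSO library 2 the list had 6 genes lower and 0 higher (46.2% called). In that fit 1019 of all 10866 genes were lower and 1223 higher (20.6% called).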
